A study of Mus musculus with 12 samples.

Results

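Genomic imprinting marks the maternal and paternal copies of a gene differently, so that one copy is used more than the other, and most imprinted genes lie in clusters. The 48 imprinted mouse genes described here belong to 21 such domains, 9 of which are represented by 1 gene. They were taken by symbol from a list of known imprinted genes, out of 52535 gene entries in each count file. By textbook assignment, 21 of them are used mainly from the maternal copy and 27 mainly from the paternal copy where they are imprinted. Some are imprinted only in certain tissues, so the assignment need not hold in embryonic stem cells. RNA-seq read counts were compared in 6 libraries of E14 cells, a mouse embryonic stem cell line: 2 of the unedited line (WT) and 2 each of 2 clones labelled Bcat1-KO, called clone 1 and clone 2 here. Bcat1 encodes the cytosolic branched-chain amino acid transaminase, and the study title places it in self-renewal and Ras signalling. All 6 libraries came from cells grown with serum, LIF and 2i, and from total RNA depleted of ribosomal RNA. Each clone is 1 line, so a difference between a clone and WT cannot be told apart from a difference between lines. Whether the 2 replicates of a group were grown separately is not in the labels, and the tests therefore weigh differences against a spread that may be technical. The 6 other samples of the series, at day 0 and day 7 of differentiation, were not analysed here.

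At many imprinted domains, though not all, the parental difference is set by DNA methylation laid down in the egg or sperm at a control region. Such methylation is kept through cell division by KRAB zinc finger proteins such as Zfp57, their partner Trim28 and the maintenance methyltransferase Dnmt1. Within a domain, a long non-coding RNA or an insulator commonly ties the genes together: Kcnq1ot1 RNA, made from the paternal copy, silences its neighbours on the same chromosome. Many imprinted genes act on growth of the fetus and placenta, and embryonic stem cell lines and subclones are known to vary in their imprints. The counts do not separate the 2 parental copies, so they give the total RNA of each gene and not its imprint.

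The stretches upstream of 4 members described below (Mest, Plagl1, Peg3 and Kcnq1ot1) are shown first, because the marks of these domains sit at or near such promoters. Each is the 250 bases before a transcript start in RefSeq on GRCm38.p6, printed 5′ to 3′ on the strand of the gene, with CpG dinucleotides, the bases that carry the methylation, in capitals. The windows are Mest at chr6:30737800-30738049 on the plus strand, Plagl1 at chr10:13090582-13090831 on the plus strand, Peg3 at chr7:6730420-6730669 on the minus strand and Kcnq1ot1 at chr7:143296548-143296797 on the minus strand.
Mest: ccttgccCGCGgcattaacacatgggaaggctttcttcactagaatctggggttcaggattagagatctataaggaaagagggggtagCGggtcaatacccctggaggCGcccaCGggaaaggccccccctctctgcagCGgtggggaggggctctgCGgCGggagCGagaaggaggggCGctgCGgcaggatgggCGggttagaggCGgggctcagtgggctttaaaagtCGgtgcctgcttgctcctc
Plagl1: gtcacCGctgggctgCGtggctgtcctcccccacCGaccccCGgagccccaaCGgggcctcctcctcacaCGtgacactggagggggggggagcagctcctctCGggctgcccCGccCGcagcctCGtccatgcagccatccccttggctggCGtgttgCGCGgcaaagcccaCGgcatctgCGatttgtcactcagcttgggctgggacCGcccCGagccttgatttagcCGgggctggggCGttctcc
Peg3: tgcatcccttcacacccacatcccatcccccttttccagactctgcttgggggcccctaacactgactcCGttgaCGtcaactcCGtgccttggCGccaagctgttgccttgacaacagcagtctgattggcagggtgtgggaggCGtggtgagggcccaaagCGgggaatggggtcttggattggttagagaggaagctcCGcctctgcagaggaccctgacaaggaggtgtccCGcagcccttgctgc
Kcnq1ot1: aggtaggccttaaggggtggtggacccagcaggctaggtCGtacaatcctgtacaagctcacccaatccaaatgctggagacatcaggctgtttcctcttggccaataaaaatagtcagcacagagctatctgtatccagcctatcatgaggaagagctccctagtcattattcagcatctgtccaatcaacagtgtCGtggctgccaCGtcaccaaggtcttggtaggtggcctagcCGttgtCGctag
The Mest window holds 14 CpG, that of Plagl1 19, that of Peg3 8 and that of Kcnq1ot1 5, and the median over all 32817 windows in the table is 6. RefSeq windows were found for 40 members and for 8 none was used. The 62 member windows held 0 to 40 CpG with a median of 10. The letters TGCCGC, the hexamer bound by Zfp57 when methylated, were searched on both strands, where the reverse complement reads GCGGCA. They occur in 8.68% of all windows and in 10 of the 62 member windows (16.1%), which belong to 9 members. The hexamer itself holds a CpG and member windows hold more CpG, so the 2 shares are not at equal CpG content. Among the 10, the Mest windows that start at chr6:30737800 and chr6:30737803 overlap. A further Mest window, at chr6:30733256-30733505, holds 7 CpG and no match. The Mest window has 2 matches, starting at positions -242 and -67 from the transcript start, and the Plagl1 window has 1, at position -90. The windows of Peg3 and Kcnq1ot1 hold none of these letters. Methylation was not measured in these libraries. The hexamer and the windows printed were chosen after the expression values were known.

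Several members are also hosts of microRNAs, which are shown because the counts of the host do not tell their level. With the seed, bases 2 to 8, in capitals, the mature microRNAs from within Mest (miR-335) and from the exon of H19 (miR-675) read as follows in RefSeq.
miR-335-5p: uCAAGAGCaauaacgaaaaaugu
miR-335-3p: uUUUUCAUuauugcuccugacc
miR-675-5p: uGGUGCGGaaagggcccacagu
miR-675-3p: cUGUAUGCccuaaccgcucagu
The 4 seeds differ from each other. Mirg, on chromosome 12, spans 14 hairpins with 26 distinct mature sequences and 25 distinct seeds. The hairpin genes of miR-335 and miR-675 were at 0 counts in all 6 libraries.

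Gene counts per library ran from 11976149 to 13923262, and the members took 0.171% to 0.185% of them. At these depths a count of 0 allows up to 0.222 to 0.253 CPM (a gene's counts scaled to a common library size after TMM adjustment), and such limits and the count intervals below cover counting error only. Bcat1 RNA stood at 608 ± 8.35 CPM in WT, 639 ± 31.9 in clone 1 and 581 ± 2.38 in clone 2 (SD, n = 2 each). By edgeR's quasi-likelihood test neither clone differed from WT (adjusted p = 0.523 and 0.606). Both clone 2 libraries (583 and 579) were slightly below both WT libraries (602 and 614), a log2 fold change of -0.06. The RNA level therefore does not check the labels, and the nature of the edit is not given in the sources used here. Embryonic stem cell markers such as Pou5f1 and Nanog summed to between 5777 and 6577 CPM in each library.

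Of the 48 members, 38 had enough counts to be tested and 24 differed in at least 1 of 4 comparisons, each tested with edgeR's quasi-likelihood test at a Benjamini-Hochberg adjusted p under 0.05 over 14946 genes. That is 63.2% of the tested members, beside 33.7% of all tested genes called in at least 1 of the same 4. The members were chosen with earlier results of these data known, so these shares describe the list and do not test it. In the 4 libraries labelled Bcat1-KO together against WT, 3 members rose (H19, Mest, Ddc) and 2 fell (Grb10, Impact), beside 6.36% of all tested genes called (4.25% higher and 2.11% lower). In clone 1 against WT, 8 rose and 11 fell, beside 21.9% of all tested genes called (12.4% higher and 9.53% lower). In clone 2 against WT, 11 rose and 5 fell, beside 17.9% of all tested genes (10.1% higher, 7.81% lower). The clones differed directly from each other in 13 members, 10 higher and 3 lower in clone 2, beside 14.3% of all tested genes (6.62% higher, 7.71% lower). As shares of the 38 tested members these counts are 13.2%, 50%, 42.1% and 34.2%. A member passed the filter on low counts if it was high enough in any group, so these shares are not shares of all 48. H19 passed it only through the clones and Peg13 only through clone 2, so their calls add no support to these counts. The comparisons of both clones share the WT libraries. The joint test takes the 4 libraries of 2 clones as separate replicates. Libraries of 1 clone are not fully independent, so the joint p-values may be too small.

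The median log2 fold change of the tested members was 0.04 in the joint comparison, -0.07 in clone 1, 0.08 in clone 2 and 0.16 for clone 2 minus clone 1, against medians that round to 0.00 over all tested genes. Members of both assigned parental classes moved in both directions, although the copy used in these cells was not measured. In clone 1, 4 of the 18 tested members with a maternal assignment rose and 4 fell, and of the 20 with a paternal assignment 4 rose and 7 fell. In clone 2, 5 maternal members rose and 3 fell, while 6 paternal members rose and 2 fell. For clone 2 minus clone 1, 3 maternal members were higher and 2 lower, and 7 paternal members were higher and 1 lower. By DESeq2 the counts of members higher and lower were 5 and 4 in the joint comparison, 6 and 9 in clone 1, 7 and 4 in clone 2, and 9 and 3 between the clones, while the genes called over all went from 951, 3280, 2674 and 2141 by edgeR to 1368, 2420, 1968 and 1495. DESeq2 added Snrpn, Peg12, Igf2r and Peg13 jointly. It did not call H19, Ndn, Peg12 and Gnas in clone 1, Cd81, Peg3, Mirg, Igf2r and H13 in clone 2, or Rian between the clones (adjusted p 0.0501 to 0.0928).

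Leaving out a WT library lowered the counts of members and of all genes. Without WT replicate 1 or 2 the joint count fell from 5 members to 2 in each case, and the count over all genes fell from 951 to 79 and 99. In clone 1 the members went from 19 to 13 and 14 and all genes from 3280 to 1576 and 1687. In clone 2 the members went from 16 to 7 and 9 and all genes from 2674 to 1165 and 1317. Without clone 2 replicate 1 or 2, clone 2 had 9 and 10 members and 1332 and 1485 genes called. The 2 libraries of clone 1 differed more from each other than those of the other groups, with a chi-square per gene of 8.79 against 3.57 in WT and 3.27 in clone 2.

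**Figure D1:**
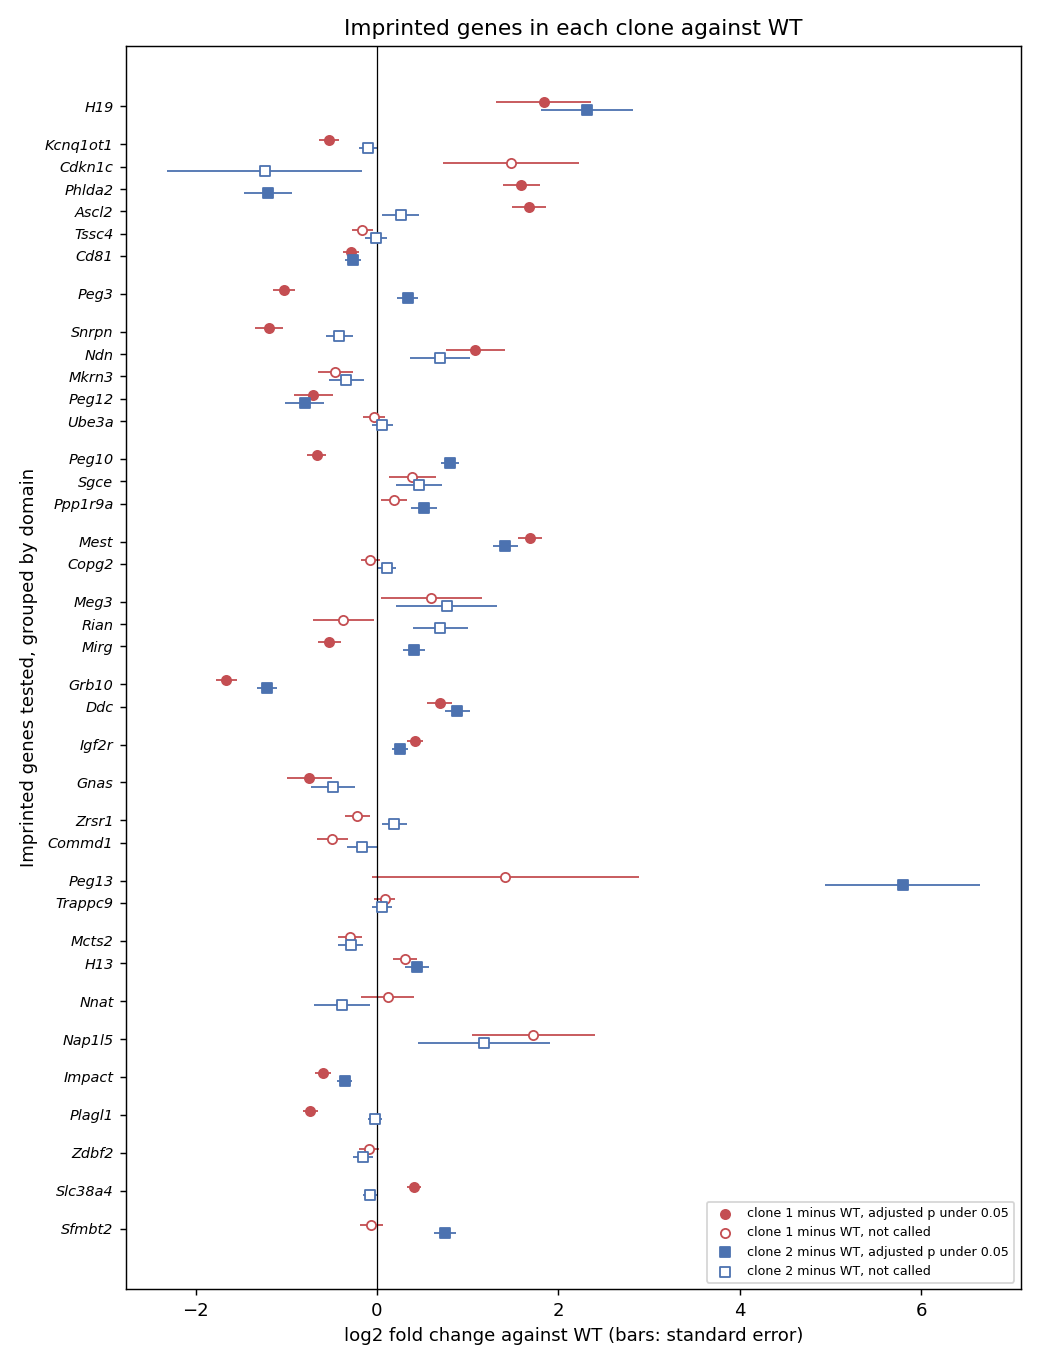
Log2 fold change against WT (x axis) of the 38 tested members (y axis, by domain) in clone 1 and clone 2, with bars of 1 standard error. Phlda2, Peg10 and Peg3 lie on opposite sides of 0 in the 2 clones, while Mest and Ddc lie above 0 and Grb10 and Impact below 0 in both.

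In the Kcnq1ot1 domain on chromosome 7, 3 of the 6 members differed between the clones, Kcnq1ot1 being higher and Phlda2 and Ascl2 lower in clone 2, and Cdkn1c, Tssc4 and Cd81 were not called. Kcnq1ot1 (GRCm38 chr7:143203458-143296549, minus strand, antisense to Kcnq1) is the non-coding RNA that silences the domain in cis. It stood at 52.5 and 46.5 CPM in WT, against 35.0 and 33.5 in clone 1 and 46.8 and 45.9 in clone 2. Both clone 1 libraries were below all others. Its level fell in clone 1 (log2 fold change -0.53 ± 0.11 SE, adjusted p = 0.00231) and was not called in clone 2 (-0.09 ± 0.11, adjusted p = 0.608), and clone 2 was higher than clone 1 by 0.43 ± 0.11 (adjusted p = 0.0136). The call in clone 1 was lost without WT replicate 1 (adjusted p = 0.0569), and that between the clones without clone 2 replicate 1 (0.121) or 2 (0.0825). In bulk RNA, fewer cells using a gene and less RNA per cell cannot be told apart.

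Of the 5 protein-coding members of this domain, Phlda2 and Ascl2 rose in clone 1, Cd81 fell, and Cdkn1c and Tssc4 were not called. Phlda2 (chr7:143501545-143503150, minus strand), a pleckstrin homology protein that limits placental growth, had 4.32 and 5.10 CPM in the WT libraries, 13.5 and 15.0 in those of clone 1, and 2.20 and 1.90 in those of clone 2. The 3 groups did not overlap. It rose in clone 1 (1.59 ± 0.21, adjusted p = 3.17e-05) and fell in clone 2 (-1.20 ± 0.26, adjusted p = 0.00388), a difference between clones of -2.79 ± 0.24 (adjusted p = 6.45e-07). Ascl2 (chr7:142966829-142969264, minus strand), a helix-loop-helix factor of the placental spongiotrophoblast, stood at 5.01 and 5.39 CPM in WT, against 15.9 and 17.4 in clone 1 and 5.74 and 6.72 in clone 2. Clone 1 stood apart, with a rise of 1.68 ± 0.19 (adjusted p = 7.25e-06), and clone 2 was not called (0.26, adjusted p = 0.429). The clones differed by -1.42 ± 0.18 (adjusted p = 6.89e-05). Ascl2 is also on the list of trophoblast markers used below.

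Cdkn1c, a cyclin-dependent kinase inhibitor and growth suppressor (chr7:143458339-143461050, minus strand), had few reads: 3 and 5 counts in WT, 12 and 10 in clone 1, 0 and 3 in clone 2. The count ratio of clone 1 to WT was 2.84 (95% interval 1.22 to 7.38), and that of clone 2 to clone 1 was 0.143 (0.0274 to 0.475). edgeR's test called neither (adjusted p = 0.172 and 0.0546), although with the replicate number as a block the second passed (0.0379). Cd81, a cell-surface tetraspanin, fell slightly in both clones, from 247 and 236 CPM in WT to 183 and 212 in clone 1 (-0.29 ± 0.09, adjusted p = 0.0245) and 194 and 209 in clone 2 (-0.26 ± 0.09, adjusted p = 0.0459). Either call was lost without WT replicate 1 (0.174 and 0.267) or 2 (0.0938 and 0.145), that of clone 1 without its replicate 1 (0.0833), and that of clone 2 without its replicate 1 (0.344) or 2 (0.121). Tssc4, next to Cd81, was not called in any comparison, at 29.3 to 36.3 CPM over the 6 libraries.

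Other genes around Kcnq1ot1 were then examined in a window of 750 kb on each side, chosen after the values were seen. Of 6 tested genes there that are on a list of further imprinted genes, 4 rose in clone 1 and none fell, while in clone 2 none rose and 1 fell, and 5 of the 6 were lower in clone 2 than in clone 1. Over all tested genes, 12.4% rose and 9.53% fell in clone 1, and 10.1% rose and 7.81% fell in clone 2. Between the clones, 7.71% of all tested genes were lower in clone 2. Slc22a18, a transporter whose gene lies beside Phlda2, had 4 and 5 counts in WT, 60 and 78 in clone 1, 4 and 13 in clone 2, with a rise in clone 1 (3.95, adjusted p = 1.98e-05), no call in clone 2 (1.01, adjusted p = 0.322) and a difference of -2.94 between the clones (adjusted p = 2.30e-04). Osbpl5, which encodes a lipid transfer protein, had 7 and 5, 42 and 58, and 6 and 11 counts in the same order (clone 1 log2 fold change 3.08, adjusted p = 1.74e-04). Slc22a18 and Osbpl5 passed the filter on low counts only through clone 1, where they are high, so their calls add no support to these counts. Of the 5 other tested genes in the window, none rose and 1 fell in each clone. Between the clones, 1 of these 5 was higher and 1 lower in clone 2. The plot of log2 fold change by distance shows these genes on both sides of Kcnq1ot1.

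**Figure D2:**
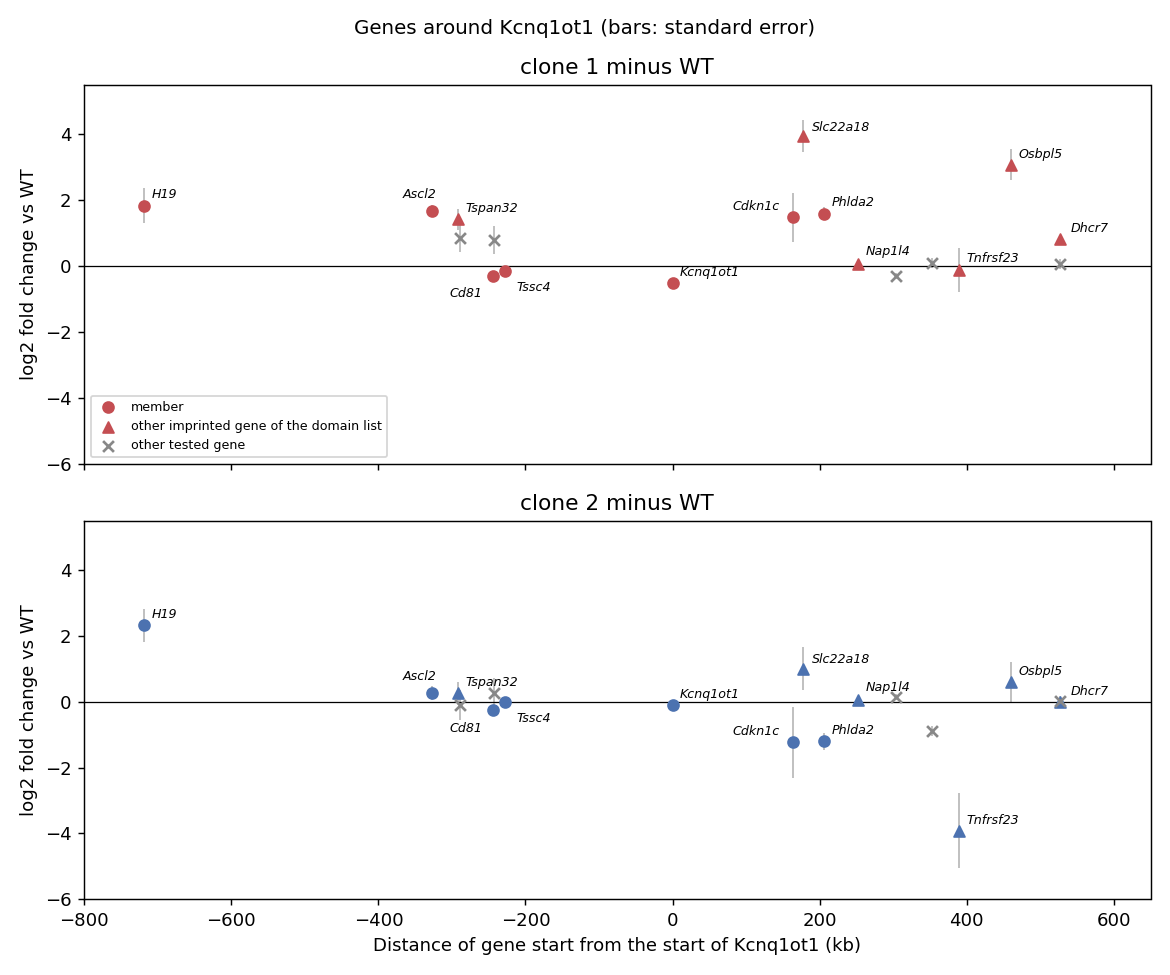
Log2 fold change against WT (y axis, bars 1 standard error) of each tested gene by the distance of its start from the start of Kcnq1ot1 in kb (x axis), with clone 1 above and clone 2 below. Ascl2, Phlda2, Slc22a18 and Osbpl5 lie well above 0 in clone 1, while Phlda2 lies below 0 in clone 2.

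The paternally used genes Peg10 and Peg3, in domains on chromosomes 6 and 7, went in opposite directions in the clones. Peg10 (chr6:4747306-4760517, plus strand), a retrotransposon-derived gene needed for the placenta, stood at 44.0 and 46.1 CPM in WT, against 27.4 and 29.3 in clone 1 and 81.6 and 75.8 in clone 2. The groups did not overlap. It fell in clone 1 (-0.67 ± 0.11, adjusted p = 3.00e-04) and rose in clone 2 (0.80 ± 0.10, adjusted p = 3.29e-05), and the clones differed by 1.47 ± 0.11 (adjusted p = 1.20e-07). In the joint comparison this left no call (0.25, adjusted p = 0.777).

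Sgce, which encodes epsilon-sarcoglycan and starts beside Peg10, also from the paternal copy, was not called, at 3.84 to 6.64 CPM over the libraries. Ppp1r9a, which encodes the actin-binding protein neurabin, stood at 18.1 and 20.2 CPM in WT, against 24.3 and 19.2 in clone 1 and 26.9 and 27.9 in clone 2. It rose in clone 2 (0.52 ± 0.14, adjusted p = 0.0161), a call lost without WT replicate 1 (0.166) or 2 (0.0608) and without clone 2 replicate 1 (0.0786) or 2 (0.100). Asb4, an ankyrin repeat protein of ubiquitin ligases, had 0 to 5 counts per library, and Calcr, the calcitonin receptor, 0 to 3. Both were below the filter.

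Peg3 (chr7:6703892-6730431, minus strand) encodes a zinc finger protein with roles in growth and maternal behaviour. It stood at 54.8 and 60.3 CPM in WT, against 30.4 and 26.2 in clone 1 and 78.9 and 66.8 in clone 2, with no overlap of the groups. It fell in clone 1 (-1.02 ± 0.12, adjusted p = 1.22e-05) and clone 2 was above clone 1 by 1.36 ± 0.12 (adjusted p = 9.79e-07). The rise in clone 2 against WT (0.34 ± 0.11, adjusted p = 0.0474) was lost without WT replicate 1 (0.318) or 2 (0.118) and without clone 2 replicate 1 (0.476) or 2 (0.0506). Its neighbours Usp29, of the deubiquitinase family, and Zim1, a zinc finger gene, had 1 to 18 and 1 to 14 counts per library and were below the filter. Zfp264, a further imprinted gene of this domain, had 50 and 41 counts in WT, against 273 and 290 in clone 1 and 180 and 176 in clone 2, and rose in the joint comparison (2.41 ± 0.27, adjusted p = 0.00147).

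Mest and Grb10 moved the same way in both clones and by the largest amounts among members called in the joint comparison apart from H19. Mest, paternally used, encodes a hydrolase-fold protein of the endoplasmic reticulum linked to fetal growth (chr6:30723547-30748465, plus strand). It stood at 12.7 and 13.6 CPM in WT, against 46.7 and 38.0 in clone 1 and 33.9 and 36.2 in clone 2, that is 13.2 ± 0.609, 42.4 ± 6.12 and 35.1 ± 1.61 (SD, n = 2 each). All 4 libraries of the clones were above both of WT. The rise was 1.56 ± 0.15 jointly (adjusted p = 8.49e-04), 1.69 ± 0.14 in clone 1 (adjusted p = 2.08e-07) and 1.41 ± 0.14 in clone 2 (adjusted p = 1.56e-06), and the clones were not called different (-0.27 ± 0.12, adjusted p = 0.167). Copg2, a coatomer subunit gene that overlaps Mest on the other strand, was not called, at 80.9 to 102 CPM.

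Grb10, an adaptor protein that dampens insulin receptor signalling (chr11:11930508-12038683, minus strand), is used from the maternal copy in most tissues and from the paternal copy in neurons. It stood at 70.9 and 69.7 CPM in WT, against 23.6 and 20.9 in clone 1 and 31.7 and 28.9 in clone 2. All clone libraries were below WT. It fell jointly (-1.42 ± 0.15, adjusted p = 0.00114), with -1.66 ± 0.11 in clone 1 (adjusted p = 3.81e-08) and -1.21 ± 0.11 in clone 2 (adjusted p = 8.72e-07). The smaller fall in clone 2 gave a difference of 0.45 ± 0.12 between clones (adjusted p = 0.0177), lost without clone 2 replicate 1 (0.187) or 2 (0.0552).

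Ddc, the decarboxylase that makes dopamine and serotonin, lies next to Grb10 (chr11:11814101-11898144, minus strand) and moved the other way. It stood at 14.6 and 14.8 CPM in WT, against 24.9 and 22.5 in clone 1 and 28.4 and 25.9 in clone 2, with all clone libraries above WT. The joint rise was 0.79 ± 0.14 (adjusted p = 0.0108), lost without WT replicate 1 (0.166) or 2 (0.142). Against WT it was 0.69 ± 0.13 in clone 1 (adjusted p = 0.00143) and 0.89 ± 0.13 in clone 2 (adjusted p = 1.78e-04).

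**Figure D3:**
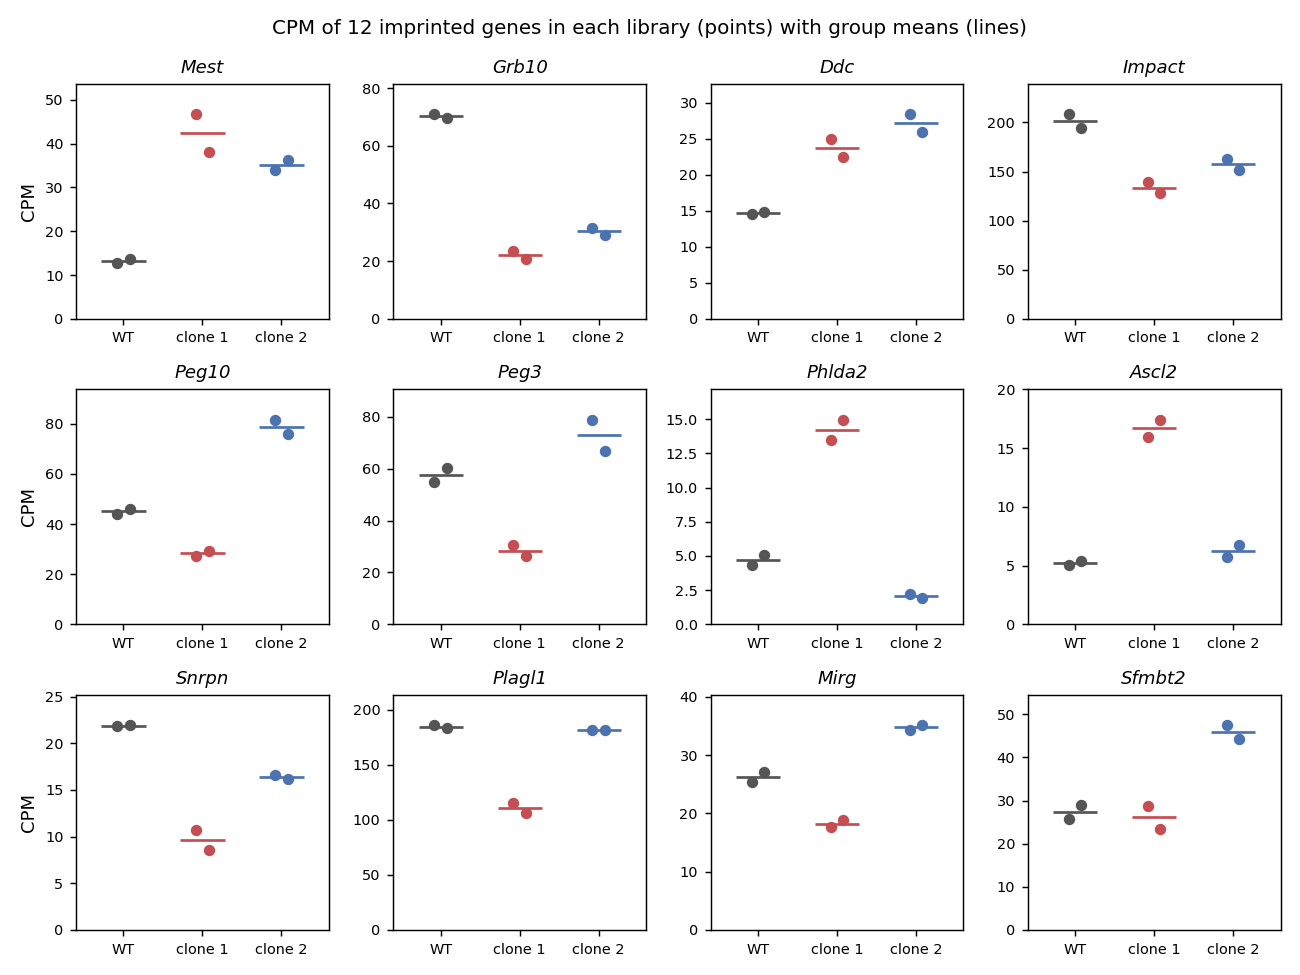
CPM (y axis, from 0) of 12 members in each library (points) with the mean of the 2 libraries of each group (lines). Mest and Ddc are higher and Grb10 and Impact lower in all 4 clone libraries than in WT, whereas Peg10, Peg3 and Phlda2 place the clones on opposite sides of WT.

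In the Snrpn domain, the region of the Prader-Willi and Angelman syndromes in humans, Snrpn itself fell most in clone 1. Snrpn encodes a spliceosomal core protein and is paternally used (chr7:59982495-60140219, minus strand). It stood at 21.8 and 21.9 CPM in WT, against 10.7 and 8.51 in clone 1 and 16.6 and 16.2 in clone 2, and the groups did not overlap. The change was -1.19 ± 0.16 in clone 1 (adjusted p = 3.73e-05). In clone 2 it was -0.41 ± 0.15 and not called (adjusted p = 0.0620), but it passed with the replicate block (0.0287), without clone 1 replicate 1 (0.0166) or 2 (0.0155), and with clone 1 left out (0.0142). The clones differed by 0.77 ± 0.16 (adjusted p = 0.00332). Snurf shares its transcript with Snrpn on the same strand, so reads of the 2 cannot be told apart.

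Peg12, a paternally used member of the Frat family of Wnt pathway regulators, fell in both clones, from 11.3 and 11 CPM in WT to 5.63 and 8.05 in clone 1 (-0.70 ± 0.21, adjusted p = 0.0238) and 5.74 and 7.04 in clone 2 (-0.80 ± 0.21, adjusted p = 0.0146). Without WT replicate 1 or 2, or without replicate 1 of the clone tested, these calls were lost (0.119, 0.102 and 0.147 for clone 1; 0.0976, 0.0794 and 0.144 for clone 2). Ndn, which encodes the MAGE protein necdin, went the other way in clone 1, from 2.24 and 1.55 CPM in WT to 3.65 and 4.37 (1.08 ± 0.32, adjusted p = 0.0238), with 3.21 and 2.93 in clone 2 (adjusted p = 0.172). The Ndn call was lost without WT replicate 2 (0.176) or clone 1 replicate 2 (0.0871). Mkrn3, a makorin-type ubiquitin ligase, and Ube3a, the maternally used ubiquitin ligase of Angelman syndrome, were not called, at 8.56 to 14.2 and 46.6 to 58.5 CPM. Magel2, another MAGE gene, had 0 to 4 counts per library.

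In the Meg3-Dlk1 domain on chromosome 12, where non-coding RNAs come from the maternal copy and protein-coding genes from the paternal copy, the tested members were the 3 non-coding RNAs. Mirg, a microRNA host transcript (chr12:109729764-109749460, plus strand), stood at 25.4 and 27.0 CPM in WT, against 17.6 and 18.8 in clone 1 and 34.4 and 35.1 in clone 2, with no overlap. It fell in clone 1 (-0.53 ± 0.12, adjusted p = 0.00590), a call lost without WT replicate 2 (0.0657). It rose in clone 2 (0.41 ± 0.12, adjusted p = 0.0248), a call lost without WT replicate 1 (0.183) or 2 (0.0896) and without clone 2 replicate 1 (0.138) or 2 (0.156). The direct difference between clones was 0.93 ± 0.12 (adjusted p = 7.58e-05).

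Rian, a host of small nucleolar RNAs (chr12:109603940-109661716, plus strand), had 2.39 and 3.84 CPM in WT, against 2.14 and 2.68 in clone 1 and 5.91 and 4.27 in clone 2. The WT and clone 1 libraries overlapped and clone 2 lay above both groups. Only the clones were called different (1.07 ± 0.32, adjusted p = 0.0333). DESeq2 did not call it (0.0881), nor did edgeR when clone 1 replicate 1 (0.0778) or clone 2 replicate 1 (0.265) was left out. Meg3, the first transcript of the maternal series, had 7 to 19 counts per library and was not called. Dlk1, a Notch-ligand-like growth factor, and the retrotransposon-derived Rtl1 were at 0 counts in all 6 libraries. Of the further listed genes of this domain, Begain and Dio3, both protein-coding and named after their values were seen, were called in clone 1. Begain, a synaptic protein gene, had 24 and 18 counts in WT, 40 and 64 in clone 1, 20 and 28 in clone 2, and rose in clone 1 (1.34 ± 0.36, adjusted p = 0.0131), a call lost without WT replicate 2 (0.124) or clone 1 replicate 2 (0.110). Dio3, the thyroid hormone deiodinase gene, had 22 and 33, 8 and 8, and 16 and 9 counts in the same order and fell in clone 1 (-1.72 ± 0.51, adjusted p = 0.0227). DESeq2 did not call that fall (0.0737), and it was lost without either WT library (0.0600 and 0.192) or either clone 1 library (0.0589 and 0.0569).

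H19 and Igf2, the classical pair in which an insulator gives the maternal copy to the non-coding H19 and the paternal copy to the growth factor Igf2, were both near the detection limit. H19 (chr7:142575529-142578143, minus strand) had 4 and 8 counts in WT, against 22 and 20 in clone 1 and 28 and 28 in clone 2. All clone libraries were above WT, and the count ratio was 3.62 (95% interval 1.87 to 7.55) for clone 1 and 5.05 (2.68 to 10.4) for clone 2. It rose jointly by 2.1 ± 0.48 (adjusted p = 0.0327), in clone 1 by 1.84 ± 0.52 (adjusted p = 0.0183) and in clone 2 by 2.31 ± 0.50 (adjusted p = 0.00393).

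The H19 calls rest on few reads. H19 passed the filter on low counts only through the clones, where it is higher, so its calls among the counts above add no support. The joint call was lost without WT replicate 1 (0.307) or 2 (0.152), without clone 2 replicate 1 (0.0675) or 2 (0.0613) and with the replicate block (0.0651). That of clone 1 was lost by DESeq2 (0.0501) and with WT replicate 1 (0.146) or clone 1 replicate 1 (0.0575) left out, and that of clone 2 without WT replicate 1 (0.0611). Igf2 (chr7:142650766-142666816, minus strand) had 7 and 4 counts in WT, against 7 and 8 in clone 1 and 0 and 0 in clone 2. Both clone 2 libraries were below all others. The exact 95% interval of the count ratio ran from 0 to 0.431 for clone 2 to WT and from 0 to 0.292 for clone 2 to clone 1. Igf2 was below the filter of the fitted test.

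**Figure D4:**
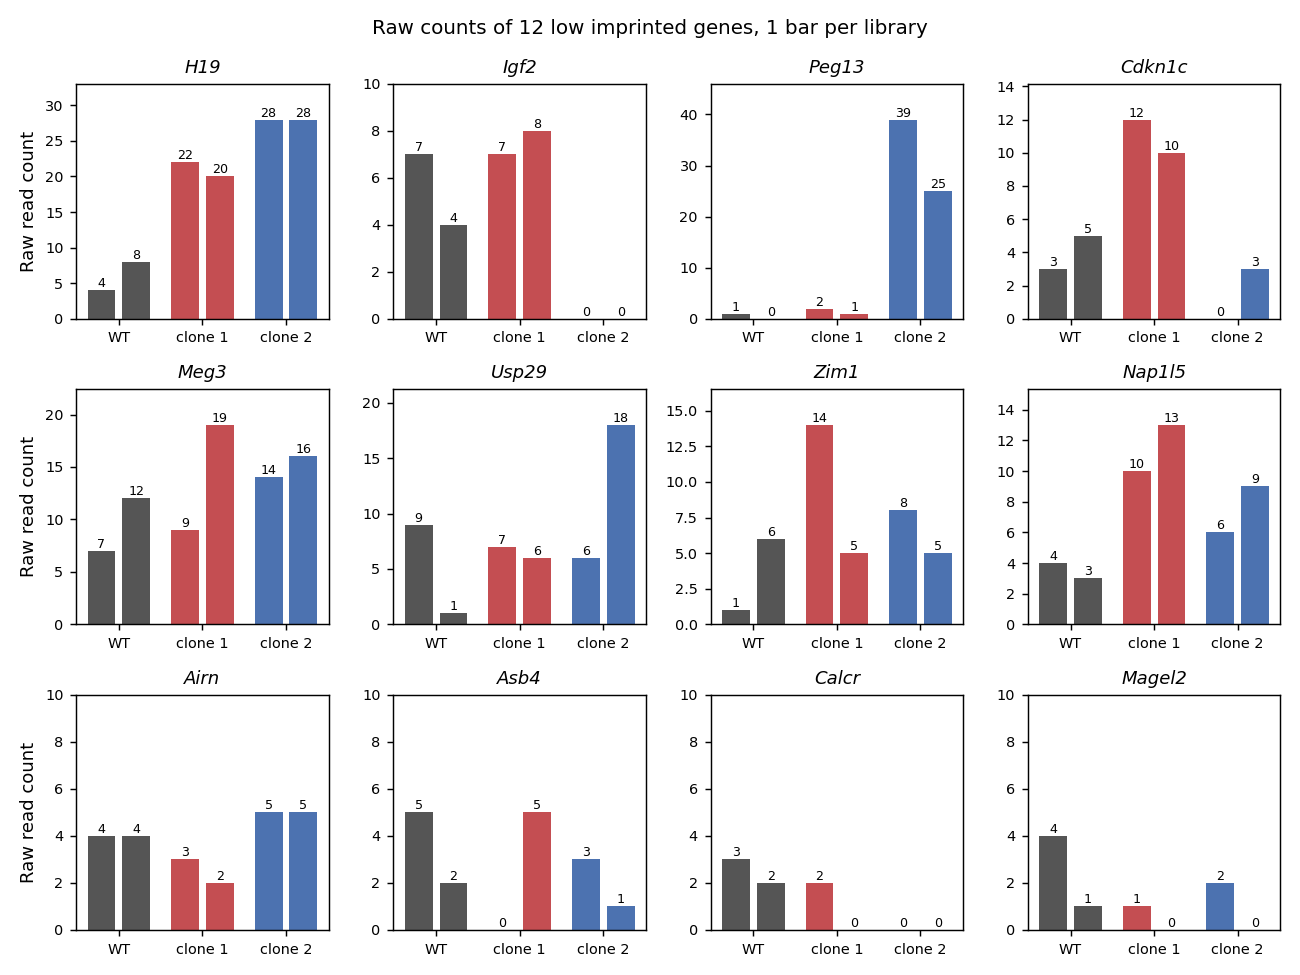
Raw counts per library (y axis) of 12 low-count members, 1 bar per library of WT, clone 1 and clone 2 (x axis). Peg13 has 39 and 25 counts in clone 2 and at most 2 elsewhere, H19 is higher in both clones than in WT, and Igf2 is at 0 in clone 2.

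Among domains represented by 1 member, Plagl1, a paternally used zinc finger growth regulator (chr10:13060504-13131694, plus strand), changed in 1 clone. It stood at 186 and 183 CPM in WT, against 116 and 106 in clone 1 and 181 and 182 in clone 2. Clone 1 was below all other libraries (-0.73 ± 0.08, adjusted p = 7.25e-06), clone 2 was not called (-0.02, adjusted p = 0.881), and the clones differed by 0.71 ± 0.08 (adjusted p = 1.95e-05).

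Impact, paternally used and an inhibitor of an amino-acid-sensing kinase, was lower in all 4 clone libraries. It stood at 208 and 195 CPM in WT, against 139 and 128 in clone 1 and 163 and 152 in clone 2. It fell jointly (-0.47 ± 0.10, adjusted p = 0.0266), in clone 1 (-0.60 ± 0.08, adjusted p = 8.12e-05) and in clone 2 (-0.36 ± 0.08, adjusted p = 0.00668). The joint call was lost without WT replicate 1 (0.298) or 2 (0.186), and that of clone 2 without WT replicate 1 (0.114) or clone 2 replicate 2 (0.133). The difference between clones was not called (0.24, adjusted p = 0.0705) but passed with the replicate block (0.0148).

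Slc38a4, a transporter of neutral amino acids that is paternally used (chr15:96994820-97055956, minus strand), stood at 218 and 210 CPM in WT, against 289 and 279 in clone 1 and 206 and 200 in clone 2. It rose in clone 1 (0.41 ± 0.08, adjusted p = 0.00111) and clone 2 lay below clone 1 (-0.49 ± 0.08, adjusted p = 4.05e-04). Sfmbt2, a Polycomb-type repressor used from the paternal copy in extraembryonic tissue (chr2:10370510-10595253, plus strand), stood at 25.6 and 28.9 CPM in WT, against 28.8 and 23.5 in clone 1 and 47.5 and 44.2 in clone 2. Here clone 2 stood apart, above WT by 0.75 ± 0.13 (adjusted p = 4.87e-04) and above clone 1 by 0.81 ± 0.13 (adjusted p = 3.65e-04). Zdbf2, a zinc finger gene that acts in growth after birth, and Nnat, the proteolipid neuronatin, were not called, at 107 to 137 and 2.36 to 4.68 CPM. Nap1l5, a nucleosome assembly family gene, had 4 and 3 counts in WT, against 10 and 13 in clone 1 and 6 and 9 in clone 2. Its count ratio of clone 1 to WT was 3.39 (95% interval 1.41 to 9.37), but it was not called (adjusted p = 0.0797). Rasgrf1, a Ras exchange factor, had 1 read in all libraries together.

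Peg13 was nearly absent outside clone 2. It is a paternally used non-coding RNA in an intron of Trappc9, on the same strand (chr15:72805600-72810324, minus strand). It had 1 and 0 counts in WT, against 2 and 1 in clone 1 and 39 and 25 in clone 2. The count ratio was 69.3 (95% interval 12 to 2778) for clone 2 to WT and 22.3 (7.31 to 111) for clone 2 to clone 1. Peg13 passed the filter on low counts only through clone 2, so its calls among the counts above add no support. Trappc9, a subunit of a vesicle-tethering complex, was at 39.3 to 47.0 CPM in the 6 libraries and was not called.

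Igf2r, the maternally used receptor that clears the Igf2 protein, rose in both clones, from 163 and 185 CPM in WT to 243 and 222 in clone 1 (0.42 ± 0.09, adjusted p = 0.00212) and 209 and 206 in clone 2 (0.26 ± 0.09, adjusted p = 0.0494). The call in clone 1 was lost without WT replicate 1 (0.0735), and that in clone 2 without WT replicate 1 (0.403) or 2 (0.0647) or clone 2 replicate 1 (0.275) or 2 (0.204). Airn, the paternal non-coding RNA that overlaps Igf2r on the other strand and silences it, had 2 to 5 counts per library.

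Gnas, the stimulatory G protein alpha subunit, fell in clone 1, from 13.3 and 12.6 CPM in WT to 5.63 and 9.82 (-0.75 ± 0.25, adjusted p = 0.0392), and was at 7.01 and 11.5 in clone 2 (adjusted p = 0.187). The call in clone 1 was lost by DESeq2 (0.0661) and without WT replicate 1 (0.188) or 2 (0.140) or clone 1 replicate 1 (0.177). In clone 2 the fall passed with the replicate block (0.0494), without clone 1 replicate 1 (0.0290) or 2 (0.0308), without clone 2 replicate 2 (0.0482) and with clone 1 left out (0.0392). H13, the signal peptide peptidase gene, rose in clone 2 from 17.2 and 17.9 CPM in WT to 23.2 and 24.4 (0.44 ± 0.13, adjusted p = 0.0253), with 21.7 and 21.7 in clone 1. That call was lost without WT replicate 1 (0.158) or 2 (0.103) or clone 2 replicate 1 (0.114) or 2 (0.178). Mcts2, a retrogene within H13 on the same strand, was not called, at 16.2 to 20.4 CPM. Zrsr1, a retrogene related to a splicing factor, and Commd1, the copper-metabolism gene around it on the other strand, were not called, at 17.6 to 24.8 and 8.88 to 14.9 CPM. With the replicate block, Commd1 passed in clone 1 (-0.50, adjusted p = 0.0223) and Zrsr1 between the clones (0.41, adjusted p = 0.0280).

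Levels can be compared between genes only per length. In CPM per kb of exon, averaged over the WT libraries, the most abundant members were Cd81 at 83.9, Slc38a4 at 50.3 and Impact at 39.3. Plagl1 stood at 23.6, Grb10 at 7.73, Peg10 at 6.75, Peg3 at 4.32, Mest at 3.34 and H19 at 0.183 on the same scale.

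The surroundings of each domain were described by the 10 nearest tested genes on each side that are not members, with a mean CPM of at least 1. These 396 distinct genes, some of them imprinted genes of the other lists, were counted once each: 13.6% rose and 10.1% fell in clone 1, beside 12.4% and 9.53% of all tested genes, and 10.6% rose and 10.4% fell in clone 2, beside 10.1% and 7.81%. For clone 2 minus clone 1, 5.56% were higher and 8.08% lower, beside 6.62% and 7.71%. Counts by domain varied. Around Igf2-H19, 7 of 20 rose in clone 1 and 5 were lower in clone 2 than in clone 1, around Plagl1 and Slc38a4 7 and 6 of 20 fell in each clone, and around Sfmbt2 6 of 20 rose in clone 1. Plagl1 itself fell in clone 1, where 7 of its 20 neighbours did.

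Single neighbours spread widely. For clone 2 minus clone 1, the 12 genes found around Peg10 ran from -0.81 to 0.19 on the log2 scale, beside 1.47 for Peg10, and the 20 around Peg3 from -2.12 to 0.37, beside 1.36 for Peg3. Those around Mest ran from -0.68 to 1.39 in clone 1 and from -1.03 to 1.12 in clone 2, beside 1.69 and 1.41 for Mest. The 20 around Grb10 ran from -0.34 to 1.61 in clone 1 and from -0.84 to 1.45 in clone 2, beside -1.66 and -1.21 for Grb10. Sets of nearby domains share genes, and those of the Igf2-H19 domain include genes near Kcnq1ot1.

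**Figure D5:**
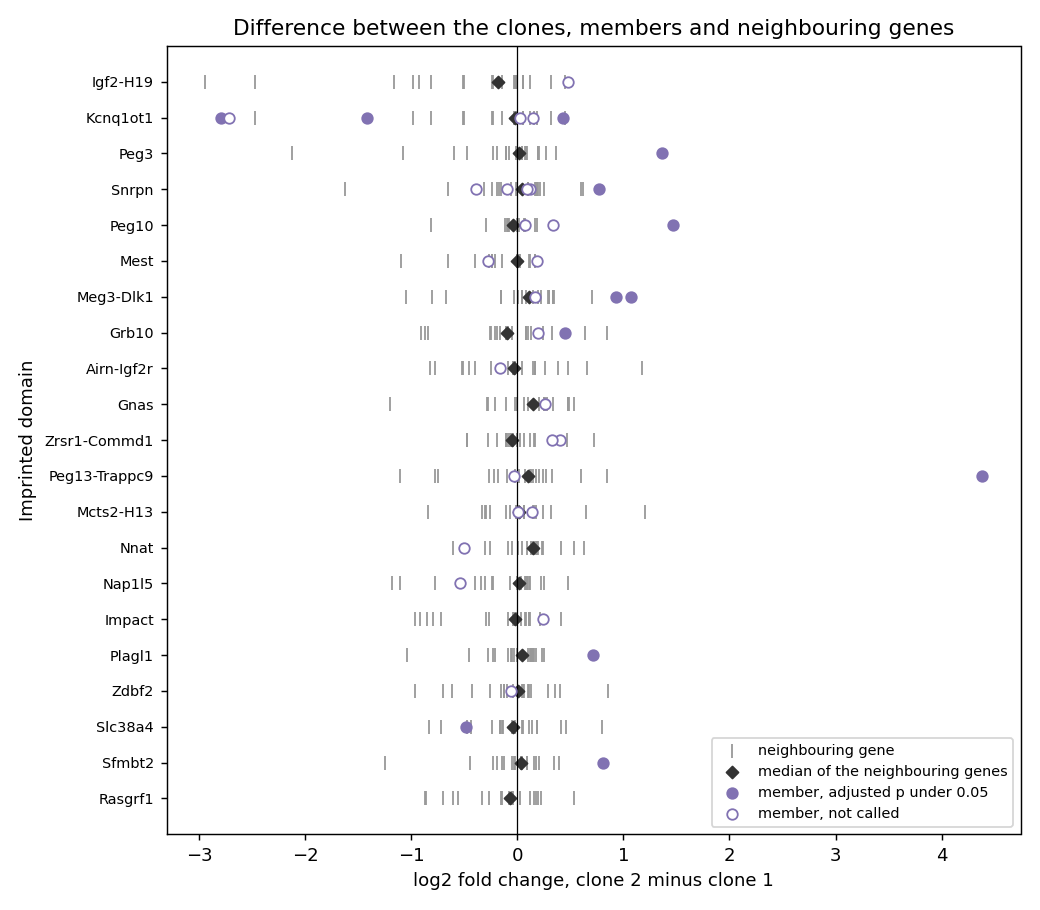
Log2 fold change of clone 2 minus clone 1 (x axis) by domain (y axis), for each tested member (filled circles: adjusted p under 0.05, open circles: not called), each neighbouring gene (ticks) and the median of the neighbours (diamonds). The ticks around Peg3 run from -2.12 to 0.37 and those around Peg10 from -0.81 to 0.19, with Peg3 (1.36) and Peg10 (1.47) to their right.

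Of 20 listed factors that set, keep or erase imprints, 18 were tested. None was called in the joint comparison by edgeR's quasi-likelihood test, with 3 at an unadjusted p under 0.05 and none called by DESeq2. In clone 1, 2 rose and 2 fell, and in clone 2, 1 rose and 1 fell, so that 4 and 2 of 18 were called beside 21.9% and 17.9% of all tested genes. Between the clones 3 were higher and 2 lower in clone 2, beside 14.3% of all tested genes. Dnmt3l, the cofactor of the de novo methyltransferases, stood at 152 and 154 CPM in WT, against 127 and 124 in clone 1 and 64.8 and 63.5 in clone 2. It fell in clone 2 (-1.26 ± 0.08, adjusted p = 2.29e-08) and was lower there than in clone 1 (-0.97 ± 0.08, adjusted p = 9.64e-07). Dnmt3a, a de novo methyltransferase, stood at 36.3 and 43.4 CPM in WT, against 82.7 and 77.9 in clone 1 and 42.1 and 39.9 in clone 2, and rose in clone 1 (1.01 ± 0.11, adjusted p = 5.52e-06). Trim28 fell in clone 1 (-0.38 ± 0.07, adjusted p = 0.00119). Smaller calls in clone 1, a rise of Smchd1 (0.29, adjusted p = 0.0396), a chromatin protein of the silent X, and a fall of Dnmt3l (-0.29, adjusted p = 0.0178), were lost without WT replicate 1 (0.212 and 0.0988) or 2 (0.159 and 0.115), and that of Smchd1 also without clone 1 replicate 1 (0.202), clone 2 replicate 1 (0.0876) or clone 2 replicate 2 (0.0802). Dppa3, which protects imprints in the zygote, rose in clone 2 (1.53 ± 0.40, adjusted p = 0.0122), a call lost without WT replicate 1 (0.126) or 2 (0.0573) or clone 2 replicate 2 (0.182). Dppa3 (2.32), Trim28 (0.29) and Tet2 (0.31), a demethylating dioxygenase, were higher in clone 2 than in clone 1, with adjusted p of 0.00154, 0.0118 and 0.0299. The Trim28 call was lost without clone 2 replicate 1 (0.124) or 2 (0.107), and that of Tet2 without any library other than clone 1 replicate 1 (0.0632 to 0.246). Zfp57, looked up for its role in keeping imprints, was not called, at 483 to 550 CPM. It passed as lower in clone 1 with the replicate block (-0.18, adjusted p = 0.0254). In clone 2 it passed as lower with clone 1 left out (-0.16, adjusted p = 0.0445). Whether these levels play a part in the members' levels was not tested.

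Of 36 further imprinted genes of the same domains, 35 were in the files and 21 were tested: 3 rose jointly and none fell, 8 rose and 1 fell in clone 1, 6 rose and 1 fell in clone 2, and 2 were higher and 6 lower in clone 2 than in clone 1. Over all tested genes, 4.25% rose and 2.11% fell jointly, 12.4% and 9.53% in clone 1, and 10.1% and 7.81% in clone 2. Between the clones, 6.62% of all tested genes were higher and 7.71% lower in clone 2. Slc22a18 and Osbpl5, among those called in clone 1, passed the filter only through clone 1. The median log2 fold changes of the 21 were 0.46, 0.38, 0.30 and -0.01. The 3 that rose jointly were Zfp264, Herc3 and Mrpl23. Herc3, in an intron of which Nap1l5 lies on the other strand, rose by 0.87 ± 0.15 (adjusted p = 0.00908), lost without WT replicate 1 (0.0833) or 2 (0.152). Mrpl23, a mitochondrial ribosomal protein gene near H19, rose by 0.75 ± 0.13 (adjusted p = 0.0103), lost without WT replicate 1 (0.148) or 2 (0.152). Of 14 listed imprinted genes elsewhere, 9 were tested and 2 rose jointly. Fkbp6, an immunophilin of male germ cells, had 36 and 29 counts in WT, against 520 and 538 in clone 1 and 522 and 618 in clone 2, a rise of 4.15 ± 0.17 (adjusted p = 8.26e-06).

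Markers of other cell types were summed in each library, and their part in the members' levels was not tested. The counts of called markers below stand beside these shares of all tested genes: 12.4% rose and 9.53% fell in clone 1. In clone 2, 10.1% rose and 7.81% fell. The 11 trophoblast markers, Ascl2 among them, summed to 87.0 to 97.1 CPM in WT, 78.3 to 97.0 in clone 1 and 61.8 to 66.0 in clone 2, with Tpbpa and Prl3d1 at 0. Of the 5 tested, 3 rose and 1 fell in clone 1, and 1 fell in clone 2. Those that rose in clone 1 were Ascl2 (1.68), Eomes (0.72 to 1.09 over the alternatives) and Krt7 (1.01 to 1.95). DESeq2 did not call the rise of Krt7 (adjusted p = 0.0644). The one that fell was Cdx2, a homeobox factor of trophoblast and hindgut, with 374 and 302 counts in WT, 29 and 19 in clone 1, 75 and 44 in clone 2 (joint log2 fold change -2.92 ± 0.40, adjusted p = 0.00355, and 0.0833 without WT replicate 1).

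The 8 fibroblast markers summed to 23.7 to 23.9 CPM in WT, 32.1 to 33.5 in clone 1 and 20.7 to 21.0 in clone 2, and 3 of them were at 0 in all libraries. Of the 4 tested, 2 rose in clone 1 and 1 in clone 2. Col1a2, a collagen gene, had 0 and 1 counts in WT, 22 and 15 in clone 1, 11 and 18 in clone 2. The 8 mesoderm markers summed to 20.4 to 24.2, 30.4 to 38.6 and 21.0 to 24.0 CPM in the same order of groups, where 2 of 4 tested rose in clone 1, while 1 rose and 1 fell in clone 2. Kdr, a receptor of vascular growth factor, had 5 and 8 counts in WT, 48 and 35 in clone 1, 50 and 66 in clone 2, and rose jointly (3.0 ± 0.44, adjusted p = 0.00479), a call lost without WT replicate 1 (0.102) or 2 (0.0687). Col1a2 and Kdr passed the filter on low counts only through the clones, so their calls add no support to these counts.

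The 10 endoderm markers summed to 2.55 to 4.51, 8.44 to 8.88 and 5.15 to 7.35 CPM, with 1 of 4 tested higher in each clone. The 7 neural markers summed to 85.8 to 97.4, 94.5 to 96.3 and 68.0 to 77.3 CPM, with none of 4 tested called in clone 1 by edgeR's quasi-likelihood test, at an unadjusted p under 0.05 or by DESeq2, and 2 lower in clone 2. Of the 8 embryonic stem cell markers, 3 fell in clone 1 and 1 in clone 2.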

How the data were processed

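Ribosomal-RNA-depleted total RNA of 6 E14 libraries was sequenced, and the authors deposited raw read counts per gene, per the labels and file headers. Per the submitters' processing notes, the build was mm10 and the tools include HTSeq 0.9.1, HISAT2 2.1.0 and DESeq2 1.18.1, with no roles stated. No source used here gives the annotation or strand setting of the counts, so reads of overlapping genes on opposite strands (Mest and Copg2, Airn and Igf2r, Zrsr1 and Commd1, Nap1l5 and Herc3, Kcnq1ot1 and Kcnq1) may not be told apart. The 5 entries that name no gene were left out, among them reads that matched more than 1 gene, 6.96% to 9.10% of all reads. Gene counts per library were 11976149 to 13923262.

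The counts were analysed with R 4.3.3 and edgeR 4.0.16: TMM scaling, filterByExpr, quasi-likelihood tests, two-sided, Benjamini-Hochberg adjusted over 14946 genes, threshold 0.05. The joint comparison used a fit with 2 levels (WT, Bcat1-KO), in which the 4 libraries of the 2 clones count as replicates although they are not fully independent. The comparisons by clone used a fit with 3 groups. A standard error is the log2 fold change divided by the square root of F. Ratios of summed counts carry exact conditional binomial 95% intervals. The fit was tested on simulated data. Alternatives were DESeq2 1.42.0, RLE scaling, no filter, a replicate block, leaving out each library, and other fits of the groups. Positions are from GENCODE M21 (GRCm38, the assembly of mm10) and sequences from RefSeq on GRCm38.p6. The members and gene lists were chosen with earlier results of these data known. Members called in any comparison are described by library. Of a list, only called genes are named, at most 6 by smallest p, with Zfp57, Pou5f1, Nanog, Tpbpa and Prl3d1 as exceptions. Figures were drawn with matplotlib 3.10.9.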

Additional observations from a re-analysis of the deposited data

Results flagged for a closer look

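The 2 clones carry the same label, yet 13 members differed between them by a direct edgeR test (log2 fold change, clone 2 minus clone 1). Higher in clone 2 were Peg13 (4.38), Peg10 (1.47), Peg3 (1.36), Rian (1.07), Mirg (0.93), Sfmbt2 (0.81), Snrpn (0.77), Plagl1 (0.71), Grb10 (0.45) and Kcnq1ot1 (0.43). Lower in clone 2 were Phlda2 (-2.79), Ascl2 (-1.42) and Slc38a4 (-0.49). Phlda2, Peg3, Peg10 and Mirg were called in opposite directions against WT in the 2 clones. The differences of Rian, Grb10 and Kcnq1ot1 lost their calls when 1 library was left out. No library stood apart from the other 3 labelled Bcat1-KO in any tested member by Dixon's criterion. That criterion takes the libraries of 2 clones as replicates of 1 group. Where the clones differ it can hardly be met, so it does not check whether 1 library decides a call.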

How the results depend on the processing

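No called member changed direction under any alternative, and 2 of 5 members called jointly, 11 of 19 in clone 1, 7 of 16 in clone 2 and 10 of 13 between the clones kept their call in all of them. The joint count of 5 members (3 higher, 2 lower) was 9 by DESeq2 (5 and 4), 10 without a filter (6 and 4) and 18 for the mean of both clone contrasts (9 and 9). That mean comes from the 3-group fit, in which the difference between the clones does not enter the spread. In clone 2, DESeq2 called 7 higher members against 11. Leaving out 1 library gave 2 to 6 members jointly (1 to 3 higher, 1 to 3 lower), 13 to 19 in clone 1 (6 to 8, 7 to 12), 7 to 18 in clone 2 (5 to 11, 2 to 7) and 10 to 17 between the clones (7 to 12, 3 to 6). The cause was not tested. Over all genes, the joint count of 951 was 1752 without a filter, 3226 for the mean of both contrasts, and 79 and 99 without WT replicate 1 or 2. For clone 2 it was 4065 with clone 1 left out of the fit, against 2674.

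With the replicate number as a block, the counts of members were 4, 20, 18 and 16 in the order joint, clone 1, clone 2, between clones, against 5, 19, 16 and 13 without it, while all genes called went from 951, 3280, 2674 and 2141 to 646, 4410, 3685 and 3007. The deviations of replicate 1 correlated at 0.0929 (WT, clone 1), 0.0127 (WT, clone 2) and 0.182 (both clones). Reads that matched more than 1 gene were 6.96% and 7.62% in replicate 1 of clones 1 and 2. They were 9.10% and 8.49% in replicate 2 of these clones, and 8.40% and 8.73% in WT. What samples of the same number share is not in the labels, and the main fits used no block.

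With 2 libraries a group, 1 library often decides a call. Depth limits 10 members below the filter, 2 of them at 0 throughout.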
